A study of Mus musculus with 12 samples.

Results

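Bcl11a, Ank1, Spnb1 and Kit are 4 genes that are active in the blood-forming cells of the fetal liver. They were taken by gene symbol from the 13581 genes of each deposited table, and all 4 were found. The measurement was 5-hydroxymethylcytosine (5hmC), captured from genomic DNA by a chemical tag and sequenced, and given for each gene as a gene body level and a promoter level in FPKM, which is reads per length and per depth of the library. The 12 mouse libraries fell into 7 groups. Embryonic stem cells (ESC) were the EB5 line of the 129/Ola strain, cultured with LIF, with 2 libraries. Heart and liver were untreated, frozen tissue of C57BL6/j mice, with no cell sorting step in the labels. They came from embryonic day 14 (E14, 1 heart and 1 liver library), from newborns of day 1 to 2 (P1, 2 and 2 libraries) and from adults of 8 weeks (W8, 2 and 2 libraries). Sequencing was paired-end for ESC and P1 and single-end for E14 and W8, so age and read format cannot be told apart between P1 and the other ages. The labels do not say whether libraries of a group came from separate animals or cultures, and the p-values therefore measure the spread between these libraries, which may be technical.

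5hmC is made from 5-methylcytosine by the Tet enzymes, and over gene bodies it is known to be richer in genes that a cell type transcribes. The fetal liver is the main site of blood formation before birth, and in the adult the bone marrow takes over while the liver is made up mostly of hepatocyte mass. Bcl11a is a zinc finger repressor that silences the fetal globin genes in red cell precursors and is also needed for lymphocyte development. Ank1 (erythrocyte ankyrin) and Spnb1 (the erythrocyte beta-spectrin, Sptb in RefSeq) belong to the skeleton under the red cell membrane, where ankyrin ties spectrin to the anion exchanger. Kit is the receptor tyrosine kinase for stem cell factor and marks blood stem and progenitor cells, mast cells and germ cells.

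In the mm9 coordinates of the files, counted from 1, the body of Bcl11a (NM_001159289) spans 23980117 to 24074123 on chromosome 11, which is 94007 bp. The body of Ank1 (NM_001110783) spans 24087354 to 24260966 on chromosome 8 (173613 bp). That of Spnb1 (NM_013675) spans 77681475 to 77809534 on chromosome 12 (128060 bp), on the minus strand. That of Kit (NM_001122733) spans 75972941 to 76052747 on chromosome 5 (79807 bp). Bodies hold exons and introns together, and a promoter window of 4000 bp lies next to each body at its 5′ side. In Spnb1 the body plus 2000 bp equals the RefSeq gene length (130060 bp), as if the window held the first 2000 bp of the gene. In Ank1, Kit and Bcl11a the body plus 2000 bp was 175613, 81807 and 96007 bp, beside gene lengths of 175666, 81736 and 96995 bp. The chromosome names were matched by RefSeq accession, since the tables name none.

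The 250 bases before the RefSeq start of the genes are shown because 5hmC forms where cytosine is methylated, which in most tissues is mainly at CpG sites. They come from another genome build than the mm9 promoter windows. Whether each stretch lies inside the window of its gene was not checked, so their CpG content is not read against the promoter values. Of the 4 genes 3 had an entry in the RefSeq promoter table (GRCm38.p6), and Ank1 had none. Capitals mark CpG sites. The stretches lie at chr11:24080445-24080694 (plus strand) for Bcl11a, chr12:76710548-76710797 (minus strand) for Spnb1 and chr5:75574737-75574986 (plus strand, the first of 2 entries) for Kit.
Bcl11a: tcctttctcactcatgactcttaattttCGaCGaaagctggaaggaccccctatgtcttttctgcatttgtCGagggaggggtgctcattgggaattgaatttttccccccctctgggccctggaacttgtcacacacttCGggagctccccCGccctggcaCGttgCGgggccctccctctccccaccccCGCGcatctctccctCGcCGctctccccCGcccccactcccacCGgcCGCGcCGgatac
Spnb1: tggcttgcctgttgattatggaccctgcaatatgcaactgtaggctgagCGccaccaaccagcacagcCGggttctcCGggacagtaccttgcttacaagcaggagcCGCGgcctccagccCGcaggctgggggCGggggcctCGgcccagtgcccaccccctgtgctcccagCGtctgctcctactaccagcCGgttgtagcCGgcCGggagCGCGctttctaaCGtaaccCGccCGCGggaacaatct
Kit: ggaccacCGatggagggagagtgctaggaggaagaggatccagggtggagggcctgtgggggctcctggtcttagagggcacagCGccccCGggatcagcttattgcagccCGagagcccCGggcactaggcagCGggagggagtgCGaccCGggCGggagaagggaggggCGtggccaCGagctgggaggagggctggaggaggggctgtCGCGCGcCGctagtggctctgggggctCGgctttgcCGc
They held 16 CpG sites in Bcl11a, 18 in Spnb1 and 17 in Kit, and their GC content was 62%, 65.2% and 70.8%. Over all 32851 promoter entries the median was 6 CpG sites and 52.4% GC. These 3 promoters are therefore CpG-rich, with more sites than 74.6%, 78.3% and 76.5% of the entries. The motif AGATAA, bound by the Gata factors of red cell precursors and searched on both strands, was in none of the 3 and in 9.99% of all entries.

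W8 heart replicate 2 stood apart from the other libraries. Reads recovered from the FPKM values over gene bodies came to 142778 in it and to between 604012 and 5761635 in the others, and 9.94% of its gene bodies were at 0. The bodies of the 4 genes held 33 to 2552 reads per library, so their counting error was 1.98% to 17.4% of the value, and at most 9.76% without that library. Their promoter windows held 0 to 47 reads. Heart libraries had summed body levels of 12 cardiomyocyte markers from 18.8 to 38.5 FPKM and liver libraries from 6.73 to 9.15, without overlap. For 12 hepatocyte markers P1 and W8 liver had 18.0 to 24.5 FPKM. E14 liver had 7.18, above E14 heart (4.96) but below W8 heart replicate 2 (11.1) and both ESC libraries (9.98 and 12.2), so the hepatocyte markers did not set E14 liver apart.

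All 4 gene bodies carried least 5hmC in adult liver. In each of them both W8 liver libraries were below the 10 other libraries, which include the fetal and newborn livers, every heart and the stem cells. The share of all bodies with this order was not counted. E14 and P1 liver were both above W8 liver. In heart no fall of the 4 genes between these ages passed the test, but almost no body passed there in either direction. The share was 0.0% of all bodies from E14 to W8 heart and 0.0149% from P1 to W8 heart. Compared with P1 liver the level in W8 liver was 4.27-fold lower in Bcl11a, 3.16-fold in Ank1, 2.97-fold in Kit and 2.52-fold in Spnb1.

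**Figure D1:**
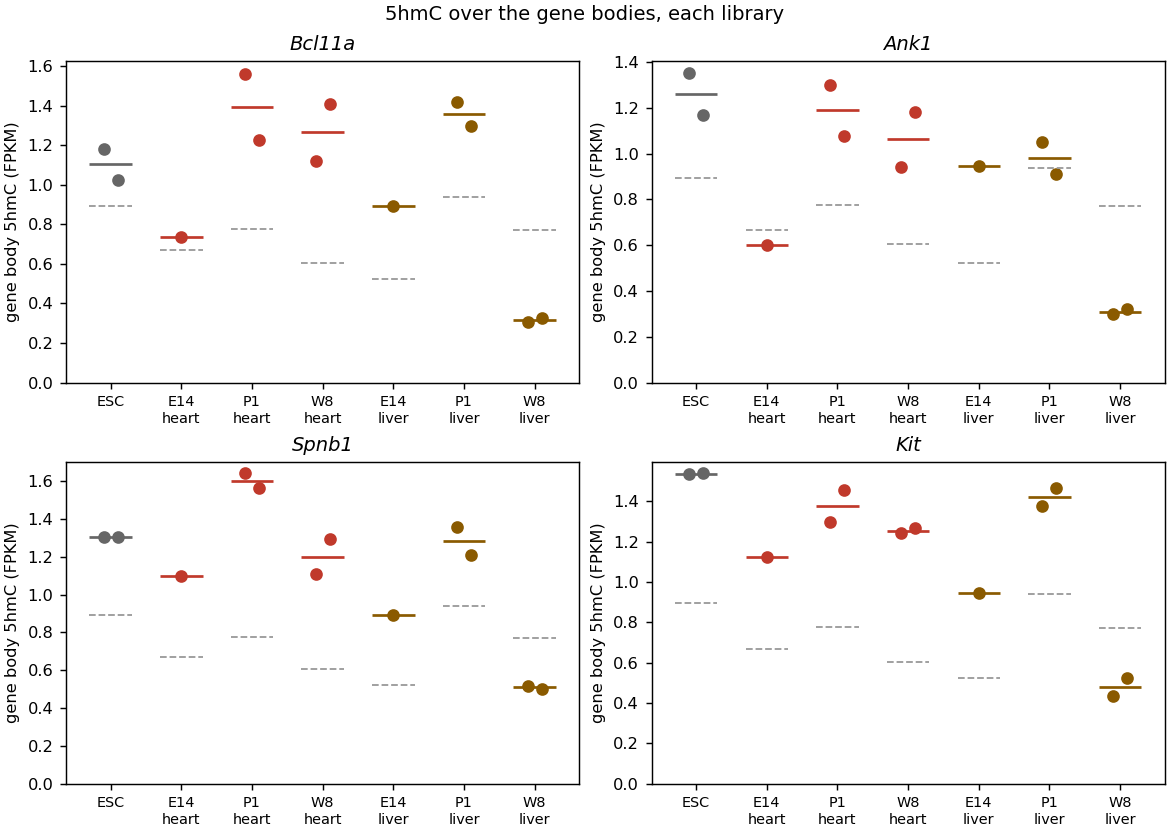
Gene body 5hmC (FPKM, y axis from 0) of the 4 genes in each of 12 libraries by group; points are libraries, solid lines group means and dashed lines the median of all genes in the group. The W8 liver points sit lowest in every panel, at 0.300 to 0.523 FPKM, and are below the median of their group.

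Bcl11a, the globin repressor, had 0.893 FPKM in E14 liver, 1.42 and 1.30 in P1 liver and 0.307 and 0.329 in W8 liver. In heart it had 0.735 at E14, 1.56 and 1.23 at P1 and 1.12 and 1.41 at W8, and ESC had 1.18 and 1.03. The 2 adult livers lay below every other library, the lowest of which was E14 heart, while P1 heart, P1 liver and W8 heart overlapped. Group means were 1.36 ± 0.0844 in P1 liver, 0.318 ± 0.0155 in W8 liver, 1.39 ± 0.237 in P1 heart, 1.27 ± 0.203 in W8 heart and 1.10 ± 0.110 in ESC (SD, n = 2 each). From the highest the order was P1 heart, P1 liver, W8 heart, ESC, E14 liver, E14 heart and W8 liver, and the first 4 did not differ from their neighbours beyond their range.

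Ank1, the ankyrin of the red cell skeleton, had 0.947 FPKM in E14 liver, 1.05 and 0.910 in P1 liver and 0.300 and 0.321 in W8 liver. In heart it had 0.601 at E14, 1.30 and 1.08 at P1 and 0.943 and 1.18 at W8, with 1.35 and 1.17 in ESC. E14 liver lay within the range of the P1 livers, and the W8 livers were again below all others. It was the gene in which E14 heart was farthest below E14 liver, at 0.635 of the liver level, although with 1 library each this has no replicate check. Means were 0.980 ± 0.100 in P1 liver, 0.310 ± 0.0146 in W8 liver, 1.19 ± 0.155 in P1 heart and 1.06 ± 0.167 in W8 heart (SD, n = 2 each). ESC, at 1.26 ± 0.128, came first, then P1 heart, W8 heart, P1 liver and E14 liver, each overlapping the next, and last E14 heart and W8 liver.

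Spnb1, the beta-spectrin that ankyrin binds, had 0.894 FPKM in E14 liver, 1.36 and 1.21 in P1 liver and 0.518 and 0.502 in W8 liver. In heart it had 1.10 at E14, 1.64 and 1.56 at P1 and 1.11 and 1.29 at W8, and both ESC libraries had 1.30. The adult livers were lowest, but less far below E14 liver than in Ank1, and the P1 hearts were above all other libraries. Means were 1.28 ± 0.108 in P1 liver, 0.510 ± 0.0114 in W8 liver, 1.60 ± 0.0571 in P1 heart and 1.20 ± 0.131 in W8 heart (SD, n = 2 each). After P1 heart came ESC, P1 liver and W8 heart, which overlapped, then E14 heart, E14 liver and W8 liver.

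Kit, the stem cell factor receptor, had 0.948 FPKM in E14 liver, 1.38 and 1.47 in P1 liver and 0.435 and 0.523 in W8 liver. In heart it had 1.13 at E14, 1.30 and 1.46 at P1 and 1.24 and 1.27 at W8, and ESC had 1.53 and 1.54. ESC libraries were highest and adult livers lowest, with no overlap at either end. Means were 1.42 ± 0.0626 in P1 liver, 0.479 ± 0.0619 in W8 liver, 1.38 ± 0.111 in P1 heart, 1.26 ± 0.0197 in W8 heart and 1.54 ± 0.00356 in ESC (SD, n = 2 each). P1 liver and P1 heart overlapped, and E14 heart and E14 liver followed W8 heart.

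The levels were also placed among all genes of the same library, which does not depend on how libraries were scaled to each other. In E14 liver the 4 bodies were between the 88.1st and the 90.4th percentile. In P1 liver they were between the 50.0th and the 78.4th. In W8 liver Bcl11a was at 18.4 and 20.1, Ank1 at 18.0 and 19.4, Kit at 27.8 and 33.4 and Spnb1 at 33.3 and 32.0. Thus all 4 passed from the upper part of the genes in embryonic liver to the lower part in adult liver, while in W8 heart they were between 78.6 and 91.1. E14 heart differed among them, with Ank1 at 44.0, Bcl11a at 56.0, Spnb1 at 80.0 and Kit at 81.2.

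Differences were tested with limma on log2(FPKM + 0.0746) over 13413 gene bodies, all 4 included, with p-values adjusted over all of them. Between P1 and W8 liver 4 of 4 fell, against 8.95% of all bodies that fell and a median of all bodies of -0.23. Over all bodies 126 rose and 1201 fell, and median centring made this 291 and 489, with the 4 genes lower. The log2 difference was -1.87 ± 0.18 (SE; 95% interval -2.30 to -1.44) in Bcl11a, with an adjusted p of 0.00912. It was -1.45 ± 0.18 (-1.87 to -1.03) in Ank1, with an adjusted p of 0.00964. Spnb1 fell by 1.21 ± 0.14 (-1.54 to -0.88, adjusted p = 0.00931) and Kit by 1.44 ± 0.14 (-1.78 to -1.11, adjusted p = 0.00912). Counted from the largest fall, Bcl11a was number 89 of the 13413 bodies, Ank1 379, Kit 388 and Spnb1 796. All 4 calls were lost when W8 liver replicate 1, W8 liver replicate 2 or P1 liver replicate 1 was left out. Each of these fits has 1 library in a group, and the calls of all other bodies were lost in them too.

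**Figure D2:**
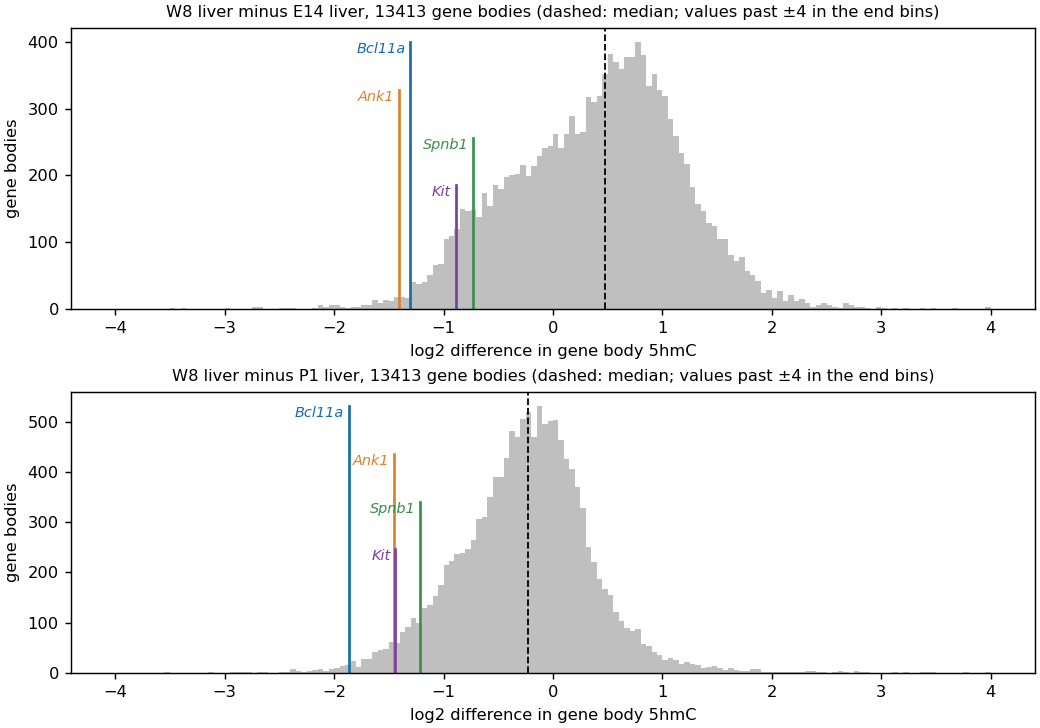
Distribution of the log2 difference in gene body 5hmC over 13413 gene bodies for W8 liver minus E14 liver (top) and W8 liver minus P1 liver (bottom), with number of gene bodies on the y axis, the median dashed and the 4 genes as coloured lines. The 4 lines lie at -1.41 to -0.73 in the upper panel and -1.87 to -1.21 in the lower one, left of the medians of 0.47 and -0.23.

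W8 and E14 liver were both read from 1 end, so read format does not differ between them. Here too 4 of 4 fell, against 2.64% of all bodies that fell. Most bodies that changed went the other way, 2407 higher and 354 lower, with a median of 0.47. With each library centred on its median this split was 457 higher and 1129 lower, and with quantile normalization 315 and 350, and the 4 genes were lower under both. Ank1 was 3.05-fold higher in E14 than in W8 liver (log2 difference -1.41 ± 0.22, 95% interval -1.92 to -0.90, adjusted p = 0.0137 by limma). Bcl11a was 2.81-fold higher (-1.30 ± 0.22, -1.83 to -0.78, adjusted p = 0.0152), Kit 1.98-fold (-0.89 ± 0.17, -1.30 to -0.48, adjusted p = 0.0190) and Spnb1 1.75-fold (-0.73 ± 0.17, -1.13 to -0.32, adjusted p = 0.0295). Ank1 ranked 111 and Bcl11a 146 from the largest fall, Kit 698 and Spnb1 1138. The E14 group is 1 library, taken to vary like the replicated groups. Leaving out either W8 liver library ended all 4 calls, and it ended those of all other bodies too. Spnb1 was also lost without either ESC library (adjusted p 0.0583 and 0.0586).

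Adult heart showed the reverse position. Between adult heart and adult liver 4 of 4 were higher in heart, against 9.46% of bodies. Bcl11a was 3.98-fold higher in heart (log2 difference 1.76 ± 0.18, 95% interval 1.34 to 2.19, adjusted p = 0.00417 by limma), with 0.664% of bodies farther toward heart. Ank1 was 3.42-fold higher (1.55 ± 0.18, 1.13 to 1.97, adjusted p = 0.00436), Kit 2.62-fold (1.27 ± 0.14, 0.93 to 1.60, adjusted p = 0.00426) and Spnb1 2.35-fold (1.12 ± 0.14, 0.79 to 1.45, adjusted p = 0.00493). Without W8 heart replicate 2 the differences were 1.61 ± 0.18 in Bcl11a, 1.40 ± 0.18 in Ank1, 1.25 ± 0.15 in Kit and 1.01 ± 0.13 in Spnb1, with adjusted p from 0.00340 to 0.00424. The median of all bodies was -0.33, and 1269 were higher and 2882 lower in heart. Median centring made that split 2192 and 1350 and quantile normalization 1813 and 1223, with the 4 genes higher under both. All 4 calls were lost when only these 4 libraries were fitted, where 0 of 13413 bodies passed in either direction. They were also lost without either W8 liver library, a fit with 1 library in that group. The calls of all other bodies were lost there too. Of 21 alternatives 18 passed in each of Bcl11a, Ank1 and Spnb1, and 17 passed in Kit.

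**Figure D3:**
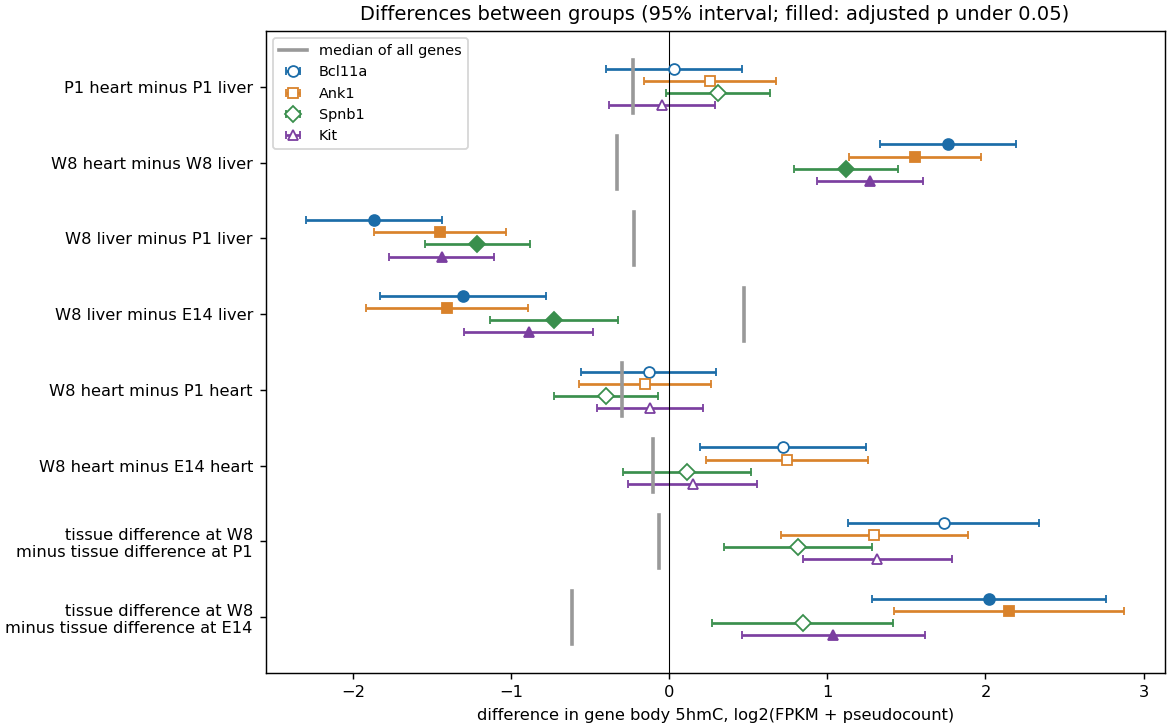
Log2 differences in gene body 5hmC between groups (x axis, log2 of FPKM plus pseudocount) with 95% intervals for the 4 genes; filled symbols have an adjusted p under 0.05 and grey bars are the median of all genes. The filled symbols stand in comparisons with W8 liver, to the right for W8 heart minus W8 liver and to the left for the liver course.

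In newborns no difference between the tissues passed. For P1 heart minus P1 liver 0 of 4 passed limma's test and 0 had an unadjusted p under 0.05, against 2.28% of bodies past the threshold. The differences were 0.03 ± 0.18 (95% interval -0.40 to 0.46) in Bcl11a, 0.26 ± 0.18 (-0.16 to 0.68) in Ank1, 0.31 ± 0.14 (-0.02 to 0.64) in Spnb1 and -0.05 ± 0.14 (-0.38 to 0.29) in Kit. Over all bodies 47 were higher and 259 lower in heart, which median centring turned into 94 and 52, and it put Kit at 0.20. At E14, with 1 library per tissue and no test, heart over liver was 0.635 in Ank1, 0.822 in Bcl11a, 1.19 in Kit and 1.23 in Spnb1, so Ank1 and Bcl11a were higher in liver and Kit and Spnb1 in heart.

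Heart itself gave no call over time. From P1 to W8 heart 0 of 4 passed, against 0.0149% of bodies past the threshold. An unadjusted p under 0.05 was met by 1 (Spnb1), and the share of all bodies at that level is not given here. The differences ran from -0.40 ± 0.14 in Spnb1 to -0.12 ± 0.14 in Kit, with -0.13 ± 0.18 in Bcl11a and -0.15 ± 0.18 in Ank1. The median of all bodies was -0.30. From E14 to W8 heart 0 of 4 passed and 2 had an unadjusted p under 0.05, against 0.0% of bodies past limma's threshold (1628 with an unadjusted p under 0.05). These were Bcl11a at 0.72 ± 0.22 and Ank1 at 0.74 ± 0.22 (both adjusted p = 0.399), and Spnb1 was at 0.11 ± 0.17 and Kit at 0.15 ± 0.17. Bcl11a and Ank1 thus stood 1.72-fold and 1.77-fold higher in W8 than in E14 heart, by values that did not pass, and 0.56 ± 0.21 and 0.59 ± 0.21 without W8 heart replicate 2.

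Whether heart and liver moved apart was tested as a difference of differences. From E14 to W8 the heart minus liver difference rose by 2.15 ± 0.31 in Ank1 (95% interval 1.42 to 2.87) and 2.02 ± 0.31 in Bcl11a (1.28 to 2.77), both with an adjusted p of 0.0259 by limma. It rose by 1.04 ± 0.25 in Kit (0.46 to 1.62, adjusted p = 0.0383), and Spnb1 was at 0.84 ± 0.24 (0.27 to 1.41, adjusted p = 0.0579). So 3 of 4 passed, against 1.97% of bodies in that direction, and 4 passed without W8 heart replicate 2. All calls of the 4 genes were lost when only the groups compared were fitted, where 0 of 13413 bodies passed. They were also lost without any 1 of the ESC, P1 liver or W8 liver libraries. Those fits have 1 library in a group, and nearly all other bodies lost their calls too. Of 21 alternatives 14 passed in Bcl11a, 14 in Ank1, 11 in Kit and 7 in Spnb1. The median of all bodies here was -0.61, with 264 higher and 1699 lower, which median centring turned into 860 and 225. From P1 to W8 the values were 1.74 ± 0.26 in Bcl11a, 1.32 ± 0.20 in Kit, 1.30 ± 0.25 in Ank1 and 0.81 ± 0.20 in Spnb1. None passed (adjusted p 0.0889, 0.0889, 0.101 and 0.120 by limma), where 0.0149% of bodies did. An unadjusted p under 0.05 was met by 4, and the share of all bodies at that level is not given here.

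Stem cells gave no call against newborn tissue. In P1 liver minus ESC 0 of 4 passed, against 15.5% of bodies, and in P1 heart minus ESC 0 of 4, against 12.6%, and in both 0 of 4 had an unadjusted p under 0.05. For P1 heart the split of 751 higher and 945 lower bodies became 1518 and 660 with median centring. ESC over W8 liver was 4.06-fold in Ank1, 3.47-fold in Bcl11a, 3.21-fold in Kit and 2.56-fold in Spnb1, for which no test was fitted. Strain goes with ESC against tissue and cannot be told apart from it.

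The markers of other cell types in liver moved over the same course. Summed hepatocyte levels were 7.18 FPKM in E14 liver, 21.3 and 18.0 in P1 liver and 24.5 and 23.8 in W8 liver, with none of the 12 markers at 0. Of these, 7 of 12 rose between E14 and W8 liver, where 17.9% of all bodies rose, and 4 of 12 with median centring. Lymphocyte markers (9 of 10 in the tables, none at 0 in liver) summed to 3.96 in E14 liver, 7.35 and 6.71 in P1 liver and 2.69 and 2.34 in W8 liver. Between P1 and W8 liver 3 of 9 fell. Of all bodies 8.95% fell over this step, which is also the share to set beside the counts that follow. The lymphocyte sums in W8 heart were 4.72 and 3.28. Macrophage markers went from 3.48 through 4.11 and 4.51 to 2.59 and 3.09 (2 of 8 fell from P1 to W8), fibroblast markers from 5.35 through 6.96 and 6.68 to 5.08 and 4.92 (3 of 10 fell), endothelial markers from 5.43 through 9.06 and 8.49 to 6.25 and 5.98 (4 of 10 fell), and the 6 megakaryocyte markers in the tables from 3.92 through 10.1 and 6.45 to 4.23 and 4.69 (2 of 6 fell). The sums of lymphocyte, macrophage and fibroblast markers were highest in P1 liver and lowest in W8 liver. Mean levels of Bcl11a, Spnb1, Kit and Ank1 had the same order, though in Ank1 E14 liver lay within the P1 range. On this scale the median of all bodies was 0.522 FPKM in E14, 0.939 in P1 and 0.773 in W8 liver. By percentile within a library the 4 genes were highest in E14 liver (88.1 to 90.4, against 50.0 to 78.4 in P1 liver). The 4 mast cell markers in the tables, a cell type that also uses Kit, stood at 1.64, then 2.96 and 2.91, then 2.53 and 2.55 (0 of 4 fell from P1 to W8). The part of these cell types in the fall of the 4 genes was not tested, and in bulk tissue fewer cells with the mark and less mark per cell cannot be told apart.

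In the wider red cell skeleton most genes did not pass. Of 24 listed genes, Ank1 and Spnb1 among them, 21 were tested. From P1 to W8 liver 4 fell and 0 rose (8.95% and 0.939% of all bodies), with a list median of -0.83 (all bodies -0.23) and 20 of 21 below 0. Beside Ank1 and Spnb1 these were Tmod1, a cap of actin filaments (-1.32 ± 0.32), and Add3, an adducin (-0.996 ± 0.135). Between E14 and W8 liver 2 fell (Ank1 and Spnb1) and 1 rose, where 2.64% and 17.9% of all bodies did. The 1 that rose was Epb4.1, the 4.1 protein that joins spectrin to actin (0.84 ± 0.19). The list median was -0.60 against 0.47, and median centring gave 0 up and 4 down. Spna1, the erythrocyte alpha-spectrin that pairs with Spnb1, was at -1.19 ± 0.34 there (adjusted p = 0.0506). Between adult heart and liver 6 were higher and 2 lower in heart (9.46% and 21.5% of all bodies), with a median of 0.80 against -0.33. Ank1, Tmod1 (1.41 ± 0.32) and Spna1 (1.41 ± 0.28) led toward heart. Without W8 heart replicate 2 the list median of the heart difference was 0.12.

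Among genes that define red cell precursors few passed. Of 34 erythroid factors and enzymes 20 were tested, and the globin genes were among the 14 not in the tables. From P1 to W8 liver 0 of 20 passed limma's test, where 8.95% of all bodies fell and 0.939% rose, with a list median of -0.31. An unadjusted p under 0.05 was met by 6 of the 20, and the share of all bodies at that level is not given here. Between E14 and W8 liver 1 of 20 rose, Foxo3 (1.34 ± 0.19), and 0 fell, where 17.9% and 2.64% of all bodies did. The list median was 0.04, and quantile normalization gave 0 up and 1 down. Adult heart had 2 of 20 lower than adult liver, where 21.5% of all bodies were lower, with a list median of -0.34. The 2 were Nfe2 (-2.54 ± 0.77) and Foxo3 (-0.89 ± 0.16). Nfe2 had 0.429 and 0 FPKM in W8 heart, the 0 in the shallow replicate 2, and 0.940 and 1.17 in W8 liver, and without that library its difference was -1.16. The red cell master factors Gata1 (-0.65 ± 0.50), Tal1 (-1.60 ± 0.81) and Klf1 (0.40 ± 1.38) did not pass between E14 and W8 liver. They were named after their values were seen. Without W8 heart replicate 2 Foxo3 was at -0.93 in adult heart minus adult liver.

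Blood progenitor and Kit signalling genes passed in both directions. Of 34 listed, Kit among them, 31 were tested. From P1 to W8 liver 8 of 31 fell and 0 rose (8.95% and 0.939% of all bodies), with a median of -0.43 against -0.23, and the largest falls were in the transcription factors Myb (-1.91 ± 0.27), Fli1 (-1.59 ± 0.18) and Runx1 (-1.47 ± 0.17). Between E14 and W8 liver 3 fell, Myb (-1.21 ± 0.33), Kit and Runx1 (-0.85 ± 0.21), and 6 rose, led by the signalling adaptor Sh2b3 (1.43 ± 0.22) and the factor Hlf (1.41 ± 0.30), with a median of 0.45 beside 0.47 for all bodies, of which 2.64% fell and 17.9% rose. Toward adult heart 5 of the 31 passed and toward adult liver 7, where 9.46% and 21.5% of all bodies did, so the share on the liver side was near that of all bodies. Kit and Runx1 (1.09 ± 0.17) were among those toward heart, and Hlf (-1.07 ± 0.24) was among those toward liver. Median centring changed the E14 count to 1 up and 9 down and the heart count to 11 up and 2 down. Without W8 heart replicate 2 adult heart minus adult liver was 1.25 in Kit, 0.96 in Runx1 and -0.83 in Hlf.

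Among the partners of Bcl11a in globin switching 23 of 24 listed genes were tested, Bcl11a included. From P1 to W8 liver 5 of 23 fell and 0 rose (8.95% and 0.939% of all bodies), with a median of -0.35. Among the 5 were Myb, Bcl11a and Igf2bp1, a fetal RNA-binding protein (-1.84 ± 0.19). Between E14 and W8 liver 4 fell, with Bcl11a and Igf2bp1 (-1.28 ± 0.24) first, and 2 rose (2.64% and 17.9% of all bodies). The median was 0.53, and median centring gave 0 up and 4 down. Bcl11a and Igf2bp1 (1.56 ± 0.19) were the 2 on the heart side of adult heart against adult liver. On the liver side there were 2 (9.46% of all bodies were on the heart side and 21.5% on the liver side). Adult heart minus adult liver was 1.61 in Bcl11a and 1.435 in Igf2bp1 without W8 heart replicate 2. Myb stands in this list and in the previous one.

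A list of 22 tested genes holds paralogs of the 4 genes and their chromosome neighbours together. Between E14 and W8 liver 5 of 22 rose, 4 of them neighbours, and 0 fell, where 17.9% and 2.64% of all bodies did. The share that rose was near that of all bodies. The list median was 0.22, and median centring gave 0 up and 5 down. The ankyrins Ank2 and Ank3, of muscle and nerve, were at 0.03 ± 0.24 and 0.22 ± 0.28 beside -1.41 ± 0.22 in Ank1. The beta-spectrins of other tissues were at 0.33 ± 0.30 (Spnb2), 1.69 ± 0.37 (Spnb3, which passed, though not with median centring) and -0.30 ± 0.29 (Spnb4) beside -0.73 ± 0.17 in Spnb1. Bcl11b, the relative of Bcl11a in T cells, was at -0.76 ± 0.42. Differences between relatives were not tested. Between P1 and W8 liver 3 of 22 fell, a share near the 8.95% of all bodies that fell. The 3 were Pdgfrb (-1.55 ± 0.13), Flt3 (-1.27 ± 0.21) and Kdr (-1.18 ± 0.26), receptor tyrosine kinases listed as relatives of Kit. Pdgfra, another such kinase in the list, was at -0.54 ± 0.20 and did not pass. In W8 heart 4 of the 22 were higher than in W8 liver and 4, all listed neighbours, were lower (9.46% and 21.5% of all bodies). The higher ones were Bcl11b (1.91 ± 0.35), Spna1, Kdr (1.19 ± 0.26) and Pdgfrb (0.68 ± 0.13).

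The genes next to the 4 on their chromosomes were read as well, from the gene order of RefSeq. Of 16 flanking protein-coding places, 13 were in the tables. Between P1 and W8 liver 1 of the 13 fell, Kdr beside Kit (adjusted p = 0.0369 by limma), where 8.95% of all bodies fell. Around Bcl11a, which fell by 1.87, Rel was at 0.24, Papolg at -0.02, Fancl at -0.02 and Vrk2 at -0.11. Around Ank1 Myst3 was at -0.09 and Agpat6 at 0.37, while Ap3m2 (-0.92 ± 0.52) and Nkx6-3 (-0.93 ± 0.99) had wide errors. Around Spnb1 Plekhg3 was at -0.22 and Churc1 at 0.24, and around Kit Pdgfra was at -0.54 and Srd5a3 at -0.61. Between E14 and W8 liver none of the 13 fell and Rel, Myst3, Plekhg3 and Churc1 rose, where 2.64% and 17.9% of all bodies did. The 4 that rose were at 0.87, 1.01, 1.15 and 0.99, and the median of all bodies was 0.47.

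**Figure D4:**
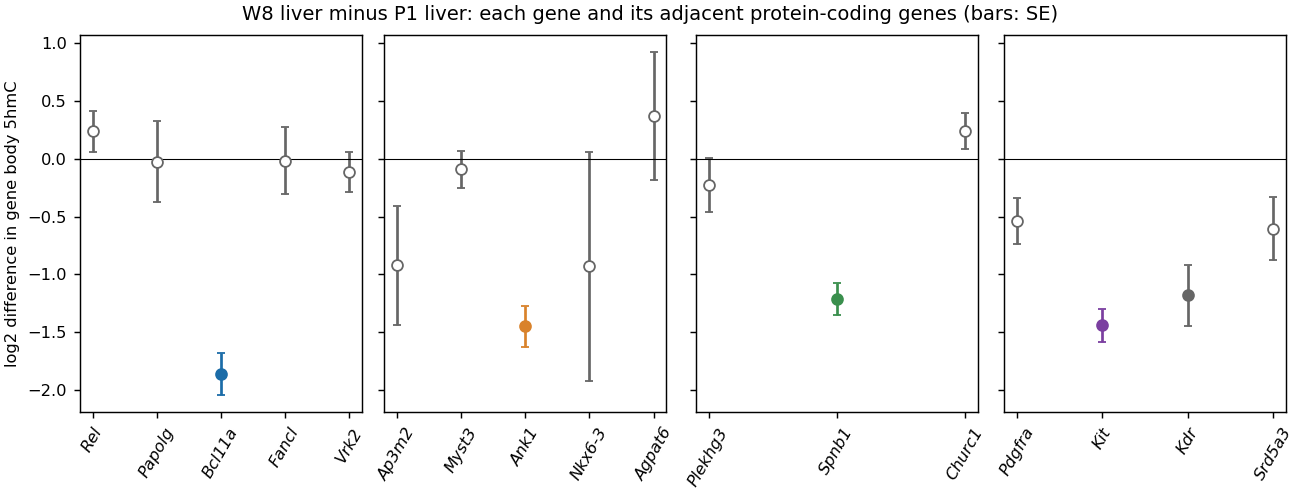
Log2 difference in gene body 5hmC, W8 liver minus P1 liver (y axis), for each of the 4 genes in colour and its adjacent measured genes in grey, in chromosome order; bars are SE and filled points have an adjusted p under 0.05. Each coloured point is below its neighbours, and Kdr beside Kit is the only filled grey point.

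Across the 12 libraries the log2 body levels of the 4 genes had a Pearson r from 0.922 (Ank1 and Spnb1) to 0.952 (Bcl11a and Ank1). Spearman's rho of the same pairs was lower, from 0.580 (Bcl11a and Kit) to 0.839 (Bcl11a and Spnb1), with 0.692 for Bcl11a and Ank1. These values describe 12 points that share depth and age groups and the low W8 liver libraries. Among 10296 genes with bodies of at least 10000 bp the 3 most like Bcl11a were Mbp (r = 0.983), Ccbe1 (0.973) and Fbxl13 (0.969). For Ank1 they were Ak5 (0.970), Fam196b (0.970) and Col23a1 (0.969), for Spnb1 Mboat2 (0.983), Hk1 (0.980) and Th (0.974), and for Kit Tbc1d9 (0.989), Sema4d (0.978) and St6galnac3 (0.968). Mbp, for example, had 0.926 FPKM in E14 liver, 1.53 in P1 liver and 0.338 in W8 liver. With Spearman's rho none of these 12 genes stayed among the 3 nearest.

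In promoter windows no member passed the test. The window of Bcl11a held 0 to 8 reads and was at 0 in 4 libraries, among the poorest windows in every library (at or under percentile 4.96), and fell under the filter on low values. In E14 liver it had 0.130 FPKM (8 reads), in P1 liver 0 and 0.140, in W8 liver 0.111 and 0.0921, and in heart at most 0.0621. Bcl11a thus had a body in the upper part of the genes in E14 liver beside a promoter window with almost no 5hmC.

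The window of Ank1 had 0.741 FPKM in E14 liver (95% Poisson interval 0.542 to 0.988), 1.05 and 0.562 in P1 liver and 0.170 and 0.308 in W8 liver (0.0620 to 0.367 and 0.148 to 0.567). In heart it had 0.473 at E14, 0.981 and 0.922 at P1 and 0.0689 and 0.778 at W8, the last from 1 read. W8 liver lay below E14 and P1 liver, but W8 heart replicate 1 was lower still. The window of Kit had 0.467 in E14 liver (0.313 to 0.671), 1.05 and 0.562 in P1 liver and 0.255 and 0.124 in W8 liver (0.116 to 0.481 and 0.0336 to 0.316), and W8 heart had 0.518 and 0, where 3 reads would have been 2.30 FPKM. The W8 livers of Kit were below all libraries but that one at 0. The window of Spnb1 had 0.754 in E14 liver, 2.36 and 1.26 in P1 liver and 0.590 and 0.522 in W8 liver, with 1.03 and 1.53 in W8 heart, and P1 heart spread from 0.393 to 1.84.

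In limma's test on 13422 promoter windows 0 of the 3 tested members passed in any of these: W8 heart minus W8 liver (0.00745% of windows), W8 liver minus P1 liver (0.00745%), W8 liver minus E14 liver (0.0%) and P1 heart minus P1 liver (0.00745%). At an unadjusted p under 0.05 the numbers were 0, 1, 0 and 0, and the share of all windows at that level is not given here. Read numbers of 0 to 47 a window limit the precision of these values.

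**Figure D5:**
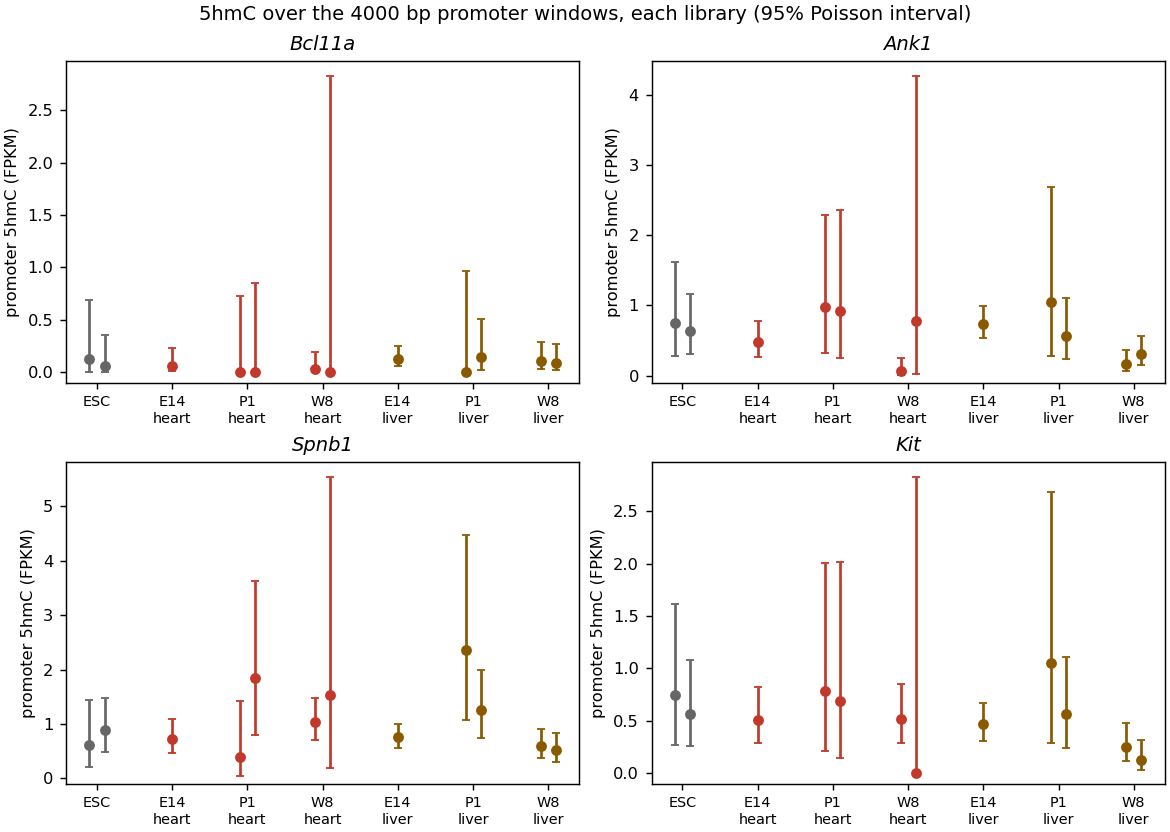
Promoter 5hmC (FPKM, y axis, own scale for each gene) of the 4 genes in each library by group, with 95% Poisson intervals that cover counting error only. Bcl11a is near 0 throughout, and the widest intervals belong to W8 heart replicate 2, where 1 read is worth 0.767 FPKM.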

How the data were processed

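The data were 12 libraries of 5hmC pull-down DNA in 7 groups, 5 of them with 2 libraries and both E14 tissues with 1. Per the submitters' processing notes reads were aligned with Bowtie2 to mm9, with no version given. What the authors deposited, per the file headers, is an FPKM value (reads scaled by length and depth) over the body and a 4000 bp promoter window of each of 13581 genes. No unenriched input was used here, so levels are relative. Low promoter values were whole read steps or sums of them in 100% of cases, within 0.01 reads, and reads were recovered from this (in single-end libraries approximately, from 2 steps with a ratio of 1.03).

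From these values log2(FPKM + pseudocount) was computed, with 0.0746 for bodies and 0.0723 for promoters (the median non-zero value divided by 10), after leaving out features with a mean under the 1st percentile (0.103 and 0.115 FPKM). limma 3.58.1 (R 4.3.3, trend) was fitted with 7 group means on 12 libraries (5 residual degrees of freedom), with Benjamini-Hochberg adjustment over all features and a threshold of 0.05. Log2 differences are on that scale and understate the change of low genes; folds are ratios of mean FPKM. Intervals for reads are Poisson at 95%; reads have no molecular identifiers, so these cover counting error only.

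The members and lists were chosen with earlier results of these data known. Named were the 4 members, at most 3 listed genes past the threshold per comparison, paralogs and neighbours beside a member, and the 3 genes most like each member; others are marked. Replicate numbers did not pair samples: correlations of deviations between groups were -0.01 to 0.04. Alternatives were other pseudocounts, filters, scalings, variance models and sample sets. List values without W8 heart replicate 2 and list counts under other scalings were added after seeing the data. Columns of per-sample values left unused numbered 0.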

Additional observations from a re-analysis of the deposited data

Results flagged for a closer look

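The heart minus liver difference in gene body 5hmC passed a test of its change between E14 and W8 in 3 of the 4 genes (limma, adjusted over all bodies). It was 2.02 (SE 0.31, adjusted p = 0.0259) in Bcl11a, 2.15 (SE 0.31, adjusted p = 0.0259) in Ank1 and 1.04 (SE 0.25, adjusted p = 0.0383) in Kit, on the log2 scale toward heart. All 3 calls were lost when 1 ESC, P1 liver or W8 liver library was left out and when only the groups compared were fitted. Nearly all other bodies lost their calls in these fits too. The E14 side of each value is 1 heart and 1 liver library.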

How the results depend on the processing

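The falls in W8 liver against P1 and E14 liver and the excess of W8 heart over W8 liver kept their direction in all 4 genes under 21 of 21 alternatives. W8 liver minus P1 liver ranged from -2.04 to -1.32 in Bcl11a, -1.61 to -0.98 in Ank1, -1.30 to -0.86 in Spnb1 and -1.55 to -1.08 in Kit. W8 liver minus E14 liver ranged from -1.90 to -0.88, -2.02 to -0.95, -1.43 to -0.52 and -1.59 to -0.63. Calls of the 4 genes depended on the libraries, as did the calls over all bodies. With 1 library left out the number of bodies past the threshold ran from 0 to 4 in W8 heart minus W8 liver, W8 liver minus E14 liver, W8 liver minus P1 liver and both changes of the tissue difference, and from 0 to 2 in W8 heart minus E14 heart. The change from E14 to W8 had 0 without an ESC, P1 liver or W8 liver library, 2 without a P1 heart library and 4 without a W8 heart library. Fitting only the groups compared gave 0 in W8 heart minus W8 liver and 0 in the change from E14 to W8, and 0 over all bodies in both. Weights by depth gave 4 in the change from P1 to W8, beside 543 higher and 512 lower of all 13413 bodies. They gave 1 in W8 heart minus E14 heart, beside 97 and 204. Quantile normalization gave 2 in P1 heart minus ESC, beside 1513 and 821. Promoter windows in place of bodies gave 0 in each. Among promoters, 1 window passed in W8 liver minus E14 liver with only those groups, beside 2738 higher and 646 lower of all 13422. In W8 liver minus P1 liver 1 passed with array weights, beside 106 and 917, and 1 with weights by depth, beside 12 and 655. In W8 heart minus E14 heart and W8 heart minus P1 heart the calls depended on the library left out, also over all windows. The cause was not tested.

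Values near 0 changed sign. In P1 heart minus P1 liver Kit was at 0.20 with median centring and 0.18 with quantile normalization, and from -0.13 to 0.031 with 1 library left out, where Bcl11a ran from -0.14 to 0.19. In W8 heart minus P1 heart median centring and quantile normalization gave 0.19 and 0.18 in Bcl11a, 0.17 and 0.15 in Ank1 and 0.20 and 0.22 in Kit, and Bcl11a ran from -0.30 to 0.035 with 1 library left out. With a replicate block 4 of the 4 bodies passed in W8 heart minus W8 liver, beside 1171 higher and 2626 lower of all 13413. In W8 liver minus E14 liver 3 passed (Spnb1 had an adjusted p of 0.0518 by limma), beside 1883 and 185. In W8 liver minus P1 liver 4 passed, beside 100 and 1059. In the change from E14 to W8 3 passed, beside 154 and 1222. The other comparisons had 0 of the 4. Depth limits the promoter windows, with at most 47 reads each.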
